A study of Mus musculus with 26 samples.

Results

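The genes described here encode 6 laminin chains (Lama2, Lama4, Lama5, Lamb1, Lamb2 and Lamc1) and 4 integrin subunits (Itga5, Itga6, Itga7 and Itgb1). They were chosen by name, and all 10 of 10 were found among the 53465 genes of the table of regenerating muscle and among the 55487 genes of the table of C2C12 cells. All 10 also passed the filter on low values in both tables, which was 0.5 FPKM (fragments scaled to the length of the gene and the size of the library) in at least 2 libraries. Each of them therefore has a test in every comparison.

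Laminins are cross-shaped proteins of the basement membrane, the matrix sheet that wraps every muscle fibre, nerve ending and blood vessel. Each laminin joins 1 alpha, 1 beta and 1 gamma chain, and the alpha chain carries the part that cells hold on to. Lama2 encodes the alpha chain of the sheath around adult muscle fibres, and its loss causes a congenital muscular dystrophy. Lama4 and Lama5 chains are found in vessel walls and at the synapse between nerve and muscle, where the Lamb2 chain takes the place of the Lamb1 chain found along the rest of the fibre. Lamc1 encodes the gamma chain shared by nearly all of these laminins. Integrins are receptors made of 1 alpha and 1 beta subunit that link the matrix to the cytoskeleton. The beta subunit encoded by Itgb1 pairs with all 3 alpha subunits described here. With Itga7 or Itga6 it binds laminin, and with Itga5 it binds fibronectin, a matrix protein laid down early in wound repair. Itga7 encodes the main laminin-binding integrin alpha subunit of mature skeletal muscle.

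In the first experiment, tibialis anterior (TA) muscle of C57BL/6 J mice was sequenced at day 0 and, once cardiotoxin (CTX) had been injected, at days 1, 3, 5 and 10; this cobra toxin kills muscle fibres, which then regenerate. According to the methods the mice were male and 6 weeks old, and saline was the control, so that whether day 0 muscle was untouched or given saline is not settled. In the second, C2C12 cells, a mouse myoblast line, carried either a control construct (CTRL), whose content is not given in the sources used here, or dCas9-KRAB with guides to the Mettl3 promoter (Cas9M3). Mettl3 encodes the enzyme that writes m6A on mRNA. Both lines were stable populations, the Cas9M3 line made by lentivirus and puromycin selection, and were sequenced in growth medium (GM, labelled D0) and on the third day in differentiation medium with horse serum (DM3, labelled D3). The labels call the second line a knockout and the methods a knockdown. Every group has 2 libraries, and no source says that they came from separate animals or cultures, so p-values measure the spread between these libraries only.

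Between 14174079 and 18823229 reads per library fell on genes in TA muscle, and between 14230094 and 29567085 in C2C12, as read from the steps in the low values. The 10 genes held 231 to 9273 reads per library in muscle and 41 to 35488 in C2C12, with the lowest counts for Lama2 in C2C12. Mettl3 was at 4.70 and 5.65 FPKM in CTRL cells in GM and at 0.331 and 0.118 FPKM in Cas9M3 cells, and at 4.68 and 5.15 against 0.148 and 0.0805 FPKM on DM3. The knockdown was thus present in all 4 Cas9M3 libraries. Several libraries stood apart. The 2 CTRL libraries in GM differed by a median of 0.658 on the log2 scale over the genes tested and the 2 Cas9M3 libraries in GM by 0.363, against 0.195 to 0.203 on DM3. In muscle, Xist, the RNA of the inactive X chromosome, was at 5.78 to 10.00 FPKM in 5 libraries (both of day 0, both of day 10 and replicate 2 of day 3) and at most at 0.152 FPKM in the other 5, which expressed Y-linked genes. The sex of the animals therefore changed with the day, and on days 1 and 5 it cannot be told apart from the day. In whole muscle, fewer cells of a type and less RNA per cell cannot be told apart either.

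RefSeq promoter windows of 300 bases (GRCm38.p6), placed on a start site of RefSeq, were at hand for 6 of the 10 genes, and Lama4, Lamc1, Itga6 and Itga7 had none. The gene starts given with the results are those of GENCODE, which lie elsewhere for some genes: most of the Lamb2 window and all of the Lama2 window fall within the GENCODE gene. The 2 beta chains are shown because Lamb1 was called higher and Lamb2 lower after injury, and Itga5 and Itgb1 because both were called higher. The windows lie at chr12:31265043-31265342 on the plus strand for Lamb1, chr9:108479612-108479911 on the plus strand for Lamb2, chr15:103366742-103367041 on the minus strand for Itga5 and chr8:128685404-128685703 on the plus strand for Itgb1. Each is written 5′ to 3′ on the strand of its gene. Capitals mark E-boxes (CANNTG), which myogenic factors such as MyoD can bind, and GC boxes (GGGCGG or its complement CCGCCC), which Sp factors can bind.
Lamb1: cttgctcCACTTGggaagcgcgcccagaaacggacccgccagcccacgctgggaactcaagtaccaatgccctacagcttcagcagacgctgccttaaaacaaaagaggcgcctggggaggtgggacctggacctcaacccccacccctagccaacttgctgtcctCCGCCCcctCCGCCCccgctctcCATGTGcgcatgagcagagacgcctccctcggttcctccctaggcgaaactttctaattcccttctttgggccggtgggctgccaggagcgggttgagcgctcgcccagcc
Lamb2: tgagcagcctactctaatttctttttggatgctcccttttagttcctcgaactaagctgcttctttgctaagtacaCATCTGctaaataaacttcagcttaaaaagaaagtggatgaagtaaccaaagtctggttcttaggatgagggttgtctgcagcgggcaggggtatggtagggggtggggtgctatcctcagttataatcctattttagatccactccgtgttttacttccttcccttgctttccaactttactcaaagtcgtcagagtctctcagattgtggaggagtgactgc
Itga5: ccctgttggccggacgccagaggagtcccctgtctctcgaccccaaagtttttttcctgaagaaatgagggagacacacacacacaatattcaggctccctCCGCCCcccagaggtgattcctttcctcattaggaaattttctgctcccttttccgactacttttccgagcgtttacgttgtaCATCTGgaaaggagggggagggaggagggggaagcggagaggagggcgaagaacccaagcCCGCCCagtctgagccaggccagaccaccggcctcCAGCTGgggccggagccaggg
Itgb1: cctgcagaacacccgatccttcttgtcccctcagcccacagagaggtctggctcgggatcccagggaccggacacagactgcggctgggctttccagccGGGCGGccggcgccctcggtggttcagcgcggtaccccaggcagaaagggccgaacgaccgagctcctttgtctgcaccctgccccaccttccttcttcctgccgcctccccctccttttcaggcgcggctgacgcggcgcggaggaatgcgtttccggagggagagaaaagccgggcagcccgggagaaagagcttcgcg
The Lamb1 window held 63.7% G and C, 2 E-boxes and 2 GC boxes, and the Lamb2 window 44.0% G and C, 1 E-box and 0 GC boxes. The Itga5 window held 2 E-boxes and 2 GC boxes and the Itgb1 window 0 E-boxes and 1 GC box. Among the windows not printed, Lama5 held 2 E-boxes and 4 GC boxes, and Lama2 1 of each. No E-box overlapped a GC box. Of 32851 promoter windows of this length, 72.3% held an E-box and 35.7% a GC box on either strand. An AP-1 site (TGANTCA), found in 7.81% of all windows, was in none of the 6, and a TEAD site (CATTCC or its complement GGAATG), found in 14.7%, was in that of Itgb1 alone. These matches describe the letters only.

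All fold changes below are log2 differences of FPKM + 0.1 from limma, with their standard error (SE), and a gene is called where the p adjusted over all genes of the table (Benjamini-Hochberg) was at most 0.05. An exact permutation test of 2 against 2 libraries cannot give a two-sided p below 0.333, so each call rests on the spread that limma estimates over all groups of a table. Statements that libraries of groups do or do not overlap describe the values only, and the share of all genes without overlap was not counted.

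In TA muscle the receptor subunits Itga7 and Itgb1 were called higher than on day 0 on days 1 and 3 (Itgb1 on day 5 too), and the laminin chains Lama2, Lamb1 and Lamc1 on day 5. On day 1, 2 of the 10 genes were called higher than on day 0 (Itga7 and Itgb1) and 0 lower, where 3.53% of the 16753 genes tested were called higher and 2.47% lower. On day 3, 3 were higher (Itga5, Itga7 and Itgb1) and 2 lower (Lama5 and Lamb2), with a background of 24.5% higher and 24.3% lower, so that 5 of 10 is about the share of all genes. On day 5, 5 were higher (Lama2, Lamb1, Lamc1, Itga5 and Itgb1) and 0 lower, against 12.9% and 12.5% of all genes. The median of the 10 fold changes was 0.65 on day 3 and 1.08 on day 5, beside 0.01 and 0 over all genes tested.

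On day 10 none of the 10 was called against day 0 in limma, where 0.00597% of all genes were called higher and 0% lower. At an unadjusted p under 0.05, 2 of the 10 and 1697 of all genes differed. From day 1 to day 3, Lamb1 was called higher and Lama5 lower, with 14.5% and 16.6% of all genes called in these directions. Between days 3 and 5, 0 of the 10 were called (3 at an unadjusted p under 0.05), against 7.23% of all genes higher and 5.46% lower. Between days 3 and 10, Itga7 was called lower and none higher, against 18.8% of all genes lower and 19.1% higher. The median of the 10 was 0.05 on day 1 and 0.49 on day 10 against day 0. Comparisons that share day 0 or day 3 are not independent of each other.

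**Figure D1:**
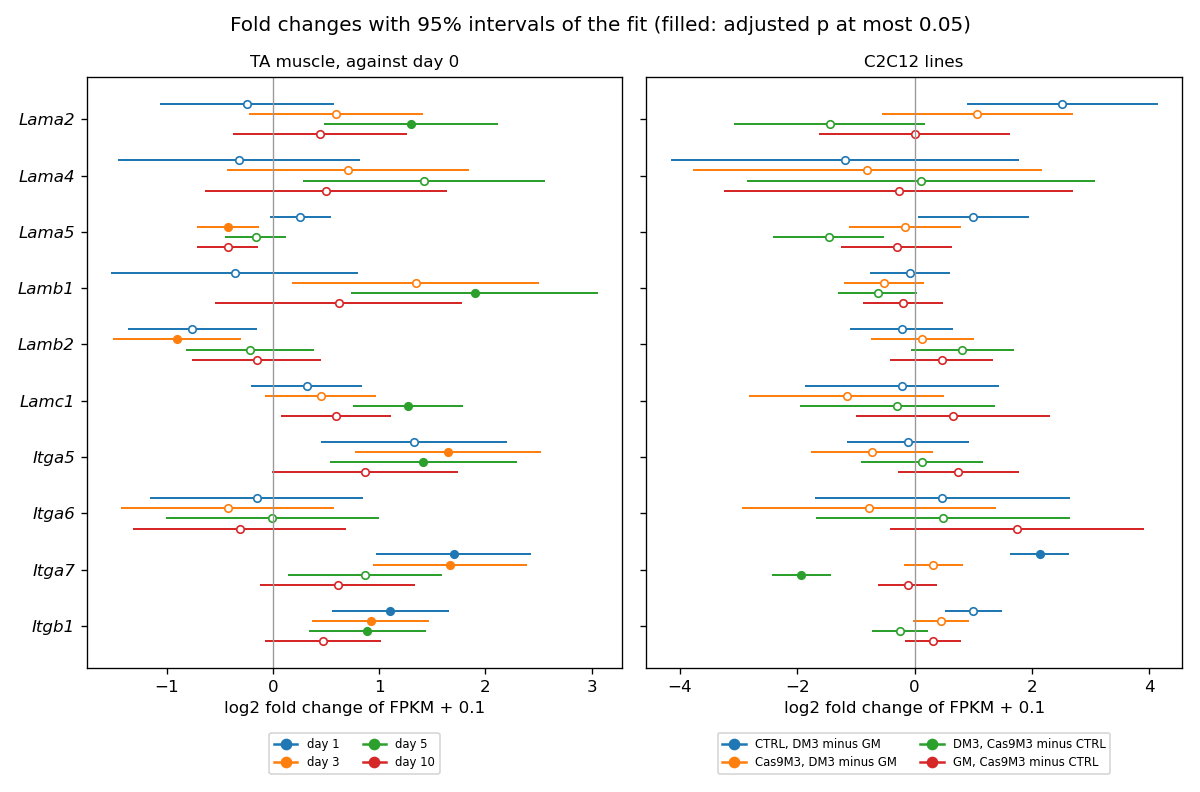
Log2 fold change of FPKM + 0.1 (horizontal axis) of the 10 genes (vertical axis), in TA muscle against day 0 (left) and in the C2C12 lines (right), with 95% intervals of the limma fit. Filled points have an adjusted p of at most 0.05; on day 5 filled points are found for Lama2, Lamb1, Lamc1, Itga5 and Itgb1, and in C2C12 only for Itga7 in 2 comparisons.

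The calls in muscle depended on single libraries and on a term for the sex of the animals. For these alternatives the share of all genes called was not recorded. With a term for libraries that express Xist, 0 of the 10 genes were called on day 1, 2 on day 3 (Itga7 and Itgb1) and 0 on day 5, and 0 from day 1 to 3 and from day 3 to 10. The count on day 1 was 0 without replicate 1 of day 1 or without any 1 library of day 0, 3 or 5, and 3 without either library of day 10. For day 3 the count was 1 when replicate 1 of day 0 was left out, 2 when it was replicate 1 of day 3, and 3 when it was replicate 2 of day 3. That on day 5 was 0 without replicate 1 of day 0 or without either library of day 5, and 2 without either library of day 3. From day 1 to 3 the count was 0 without replicate 2 of day 3, 1 without either library of day 1 or of day 5 or without replicate 1 of day 3, and 3 when replicate 1 of day 0 was left out. Between days 3 and 10 it was 0 without replicate 1 of day 3 or of day 10 and 2 without either library of day 1. Between days 3 and 5 it was 1 without any 1 library of day 0, 1 or 10. Of all calls of the 10 genes in muscle, that of Itga7 on day 3 was the only one to hold without each of the 10 libraries, with an adjusted p of 0.000868 to 0.0312 in limma.

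Lamb1, on chromosome 12 (chr12:31265234-31329644, GRCm38), had the largest ratio of highest to lowest day mean of the 6 laminin chains (4.81). It was at 2.30 and 5.19 FPKM on day 0 (replicates 1 and 2), 2.12 and 3.37 on day 1, 9.60 and 8.35 on day 3, 12.5 and 13.9 on day 5, then 3.31 and 8.68 on day 10. The libraries of days 3 and 5 lay above all those of days 0 and 1, while the 2 libraries of day 10 were split, with replicate 1 in the range of day 0 and replicate 2 in that of day 3. The rise from day 1 to day 3 was 1.71 (SE 0.50, adjusted p = 0.0366) and that from day 0 to day 5 was 1.90 (SE 0.50, adjusted p = 0.0319). From day 0 to day 3 the difference was 1.35 (SE 0.50) and was not called (adjusted p = 0.0567), though it was after quantile normalization (adjusted p = 0.0470).

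Lamb2, on chromosome 9 (chr9:108479736-108490530), encodes the beta chain of synaptic laminins and was highest before injury. It was at 40.9 and 38.9 FPKM on day 0, 19.3 and 28.9 on day 1, 16.7 and 27.3 on day 3, 33.6 and 35.3 on day 5, then 38.3 and 33.7 on day 10. Day 0 was above every other library, and days 1 and 3 were below the rest. Lamb2 fell by 0.90 from day 0 to day 3 (SE 0.26, adjusted p = 0.0232), a call lost after quantile normalization (adjusted p = 0.114). The difference on day 1 was -0.76 (SE 0.26, adjusted p = 0.117). That from day 3 to day 10 was 0.75 (SE 0.26, adjusted p = 0.0552) and was not called.

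The balance of the beta chains differed between days. Lamb1 made up 5.32% and 11.8% of the summed beta chain FPKM on day 0, 9.90% and 10.4% on day 1, 36.5% and 23.4% on day 3, then 27.1% and 28.3% on day 5. On day 10 its share was 7.95% in replicate 1 and 20.5% in replicate 2. Lamb2 was thus the more abundant beta chain mRNA per length of gene in each of the 10 libraries. The beta chains together were 3.92 and 2.63 times the level of Lamc1 on day 0 and 1.41 and 1.48 times on day 5.

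Lamc1, the shared gamma chain gene on chromosome 1 (chr1:153218922-153332786), reached its highest level on day 5. Its values were 11.0 and 16.8 FPKM on day 0, 16.2 and 17.7 on day 1, 18.3 and 18.9 on day 3, 32.7 and 33.3 on day 5, then 17.4 and 24.3 on day 10. The 2 libraries of day 5 were above all 8 others and close to each other. The rise from day 0 to day 5 was 1.27 (SE 0.22, adjusted p = 0.0136). The difference between days 3 and 5 was 0.82 (SE 0.22, adjusted p = 0.0515) and was not called. It was called with a pseudocount of 1 (adjusted p = 0.0433) or with only these groups in the fit (adjusted p = 0.0139). On day 10 it was 0.59 above day 0 (SE 0.22, adjusted p = 0.454).

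**Figure D2:**
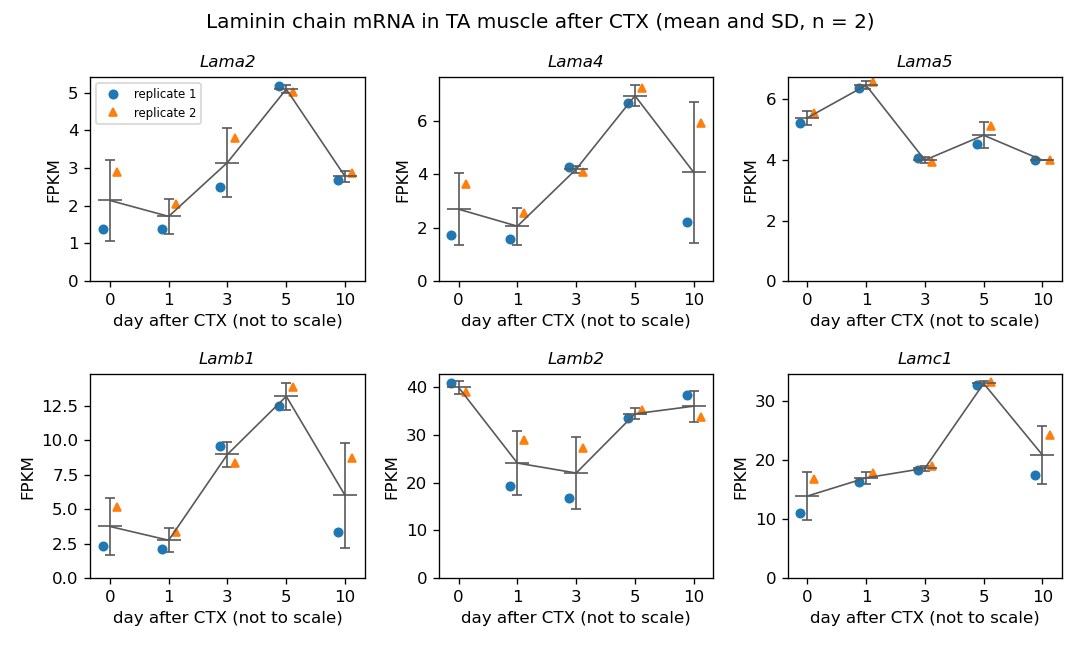
FPKM of the 6 laminin chain genes (vertical axes) by day after CTX (horizontal axes, not to scale), with each library as a point and the mean and SD of 2 libraries as line and bar. Lama2, Lama4, Lamb1 and Lamc1 had their highest means on day 5, Lama5 on day 1 and Lamb2 on day 0.

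Of the alpha chains, Lama2 also reached its highest level on day 5. It was at 1.39 and 2.89 FPKM on day 0, 1.38 and 2.05 on day 1, 2.49 and 3.80 on day 3, 5.17 and 5.01 on day 5, then 2.68 and 2.87 on day 10. Only day 5 stood clear of all other libraries. The rise from day 0 to day 5 was 1.30 (SE 0.35, adjusted p = 0.0342). Lama2 lies on chromosome 10 (chr10:26980036-27619758), and 631 of its exon bases overlap an antisense gene, Gm48084; whether the counting used strand is not given in the sources used here.

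Lama4, an alpha chain gene of vessel walls on chromosome 10 (chr10:38965515-39110188), was at 1.74 and 3.65 FPKM on day 0, 1.57 and 2.55 on day 1, 4.29 and 4.10 on day 3, 6.67 and 7.23 on day 5, then 2.20 and 5.95 on day 10. Its day 5 libraries were also the highest, 1.42 above day 0 (SE 0.49), but the adjusted p was 0.0685. Across the 10 libraries Lama4 and Lamb1 had a Pearson r of 0.976 on the log2 scale, a description of libraries that share their day. In both genes replicate 2 was higher than replicate 1 on days 0, 1 and 10.

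Lama5, the third alpha chain gene, on chromosome 2 (chr2:180176373-180225859), varied little between libraries of a day. It was at 5.22 and 5.56 FPKM on day 0, 6.38 and 6.56 on day 1, 4.06 and 3.93 on day 3, 4.52 and 5.12 on day 5, then 3.99 and 4.0 on day 10. Day 1 was above all other libraries, and days 3 and 10 were below the rest. From day 1 to day 3 Lama5 fell by 0.68 (SE 0.12, adjusted p = 0.00766) and from day 0 to day 3 by 0.42 (SE 0.12, adjusted p = 0.0245). On day 10 the difference from day 0 was -0.42 as well (SE 0.12), with an adjusted p of 0.404 in that comparison.

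The makeup of the alpha chain mRNAs differed between days. Lama5 was 62.5% and 46.0% of the summed alpha chain FPKM on day 0 and 68.4% and 58.8% on day 1. On day 5 it was 27.6% and 29.5%, with Lama4 at 40.8% and 41.7% and Lama2 at 31.6% and 28.9%. The 2 libraries of day 10 had Lama5 at 45.0% and 31.2% and Lama4 at 24.8% and 46.4%. In no library of muscle did Lama2, the chain of the adult fibre sheath, hold the largest share of FPKM. This order depends on the merged exon lengths (16338 bases for Lama2, 12068 for Lama4 and 11388 for Lama5). Before scaling to length, Lama2 held the most reads of these chains in replicate 2 of day 3 (1256) and replicate 1 of day 5 (1376), and in no other library. The shares are descriptions of each library and were not tested.

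**Figure D3:**
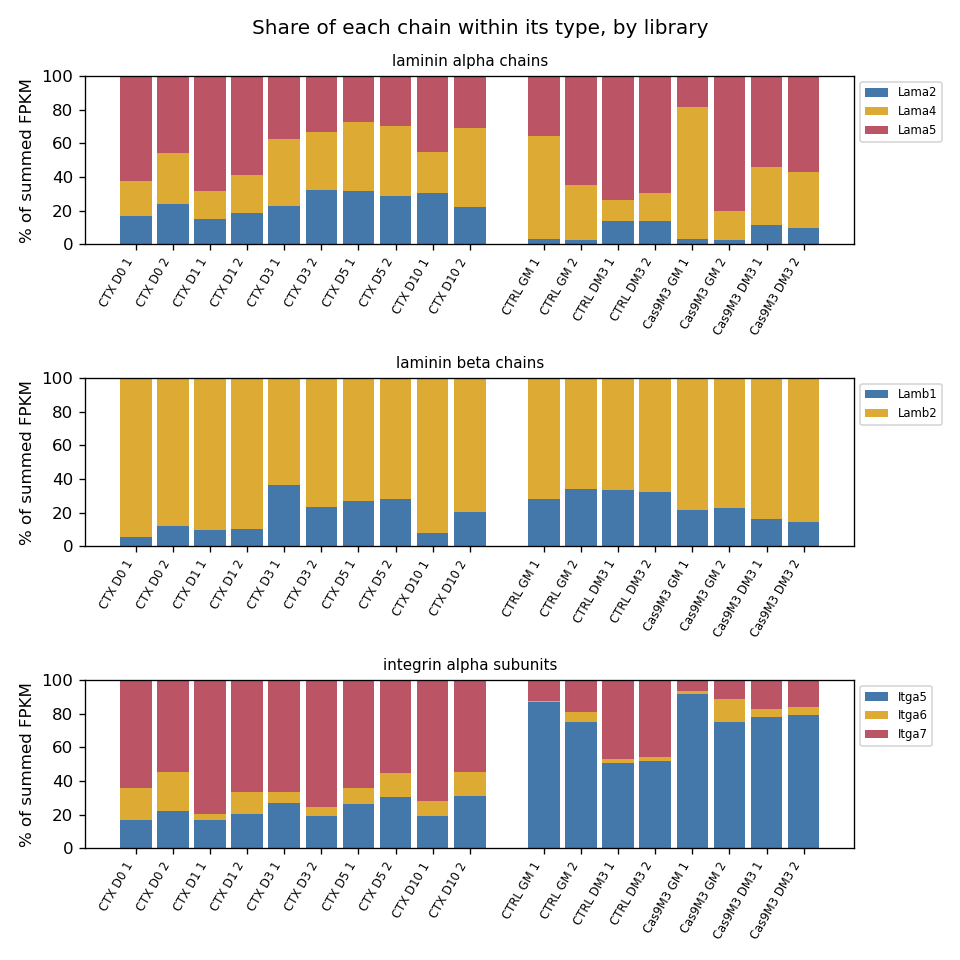
Share of each gene in the summed FPKM of its chain type (vertical axes, percent) for the alpha chains, beta chains and integrin alpha subunits, with 1 bar per library of TA muscle (left) and C2C12 (right). Lamb1 gained in share on days 3 and 5, and Itga7 was above 40% of the plotted integrin alpha subunits in C2C12 only in the 2 CTRL libraries on DM3.

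Among the receptors, Itga7 on chromosome 10 (chr10:128933818-128958282), a laminin receptor subunit of muscle, was higher on day 1 already. Its exons share 9 bases with Mettl7b on the other strand. It was at 14.5 and 16.2 FPKM on day 0, 71.7 and 34.9 on day 1, 42.2 and 56.6 on day 3, 30.6 and 25.7 on day 5, then 23.7 and 23.2 on day 10. Every library after injury was above both libraries of day 0, and days 1, 3, 5 and 10 followed each other downwards with an overlap between days 1 and 3 only. The rise was 1.70 on day 1 (SE 0.31, adjusted p = 0.0309) and 1.67 on day 3 (SE 0.31, adjusted p = 0.00389). On day 5 the difference from day 0 was 0.87 (SE 0.31, adjusted p = 0.0778). From day 3 to day 10 Itga7 fell by 1.06 (SE 0.31, adjusted p = 0.0319).

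Libraries alike in Xist can be set side by side for Itga7 on day 3 only, with 1 library of that day in each set, and neither set holds both day 0 and day 1 or 5. With the Xist term the call on day 1 was lost (adjusted p = 0.396 in limma). Replicate 2 of day 3, at 56.6 FPKM, expressed Xist as did the 4 libraries of days 0 and 10, which had 14.5 to 23.7 FPKM. Replicate 1 of day 3, at 42.2 FPKM, lacked Xist as did the libraries of day 1 (71.7 and 34.9) and day 5 (30.6 and 25.7). Myoblast and new fibre markers moved with the day too. The summed FPKM of the 7 (Pax7, Myf5, Myod1, Myog, Mymk, Myh3 and Myh8) was 40.0 and 54.4 before injury (day 0), 115 and 54.6 a day later, and 926 and 1428 by day 3. It was 408 and 514 by day 5 and 73.1 and 122 by day 10. Itga7 overlapped between days 1 and 3, and the marker sum did not. The part of these cells in the level of Itga7 was not tested.

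Itgb1, on chromosome 8 (chr8:128685654-128733200), encodes the common beta subunit and was the most abundant of the 10 mRNAs per length of gene on days 1, 3, 5 and 10. It was at 38.4 and 52.2 FPKM on day 0, 116 and 80.7 on day 1, 79.9 and 90.1 on day 3, 92.3 and 74.8 on day 5, then 55.5 and 69.6 on day 10. All 8 libraries after injury were above both of day 0. The rise was 1.11 on day 1 (SE 0.24, adjusted p = 0.0420), 0.92 on day 3 (SE 0.24, adjusted p = 0.0144) and 0.89 on day 5 (SE 0.24, adjusted p = 0.0326). The 3 alpha subunits together held 0.519 to 0.830 times the FPKM of Itgb1 in the 10 libraries.

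Itga5, the fibronectin receptor subunit on chromosome 15 (chr15:103344286-103366763), was at 3.76 and 6.51 FPKM on day 0, 15.0 and 10.5 on day 1, 17.0 and 14.5 on day 3, 12.6 and 14.2 on day 5, then 6.34 and 13.1 on day 10. The libraries of days 1, 3 and 5 were above both of day 0, and those of day 10 were split. The rise was 1.65 on day 3 (SE 0.38, adjusted p = 0.00902) and 1.42 on day 5 (SE 0.38, adjusted p = 0.0327). On day 1 the difference was 1.33 (SE 0.38), but the adjusted p was 0.0772. Fn1, the gene of its ligand fibronectin, was at 3.85 and 13.8 FPKM on day 0 and 8.33 and 17.9 on day 1, where these days overlapped. It was at 53.9 and 61.6 on day 3, 88.0 and 60.4 on day 5, then 11.9 and 26.2 on day 10.

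Itga6, on chromosome 2 (chr2:71745616-71858416), encodes the other laminin receptor subunit and was called in none of the 7 comparisons of muscle. Its values ran from 3.04 to 6.86 FPKM with a median of 4.55, and each day overlapped with the next in the order of means. Its share of the summed alpha subunits was 19.2% and 23.1% on day 0 and 7.02% and 4.86% on day 3, where Itga7 and Itga5 were higher.

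**Figure D4:**
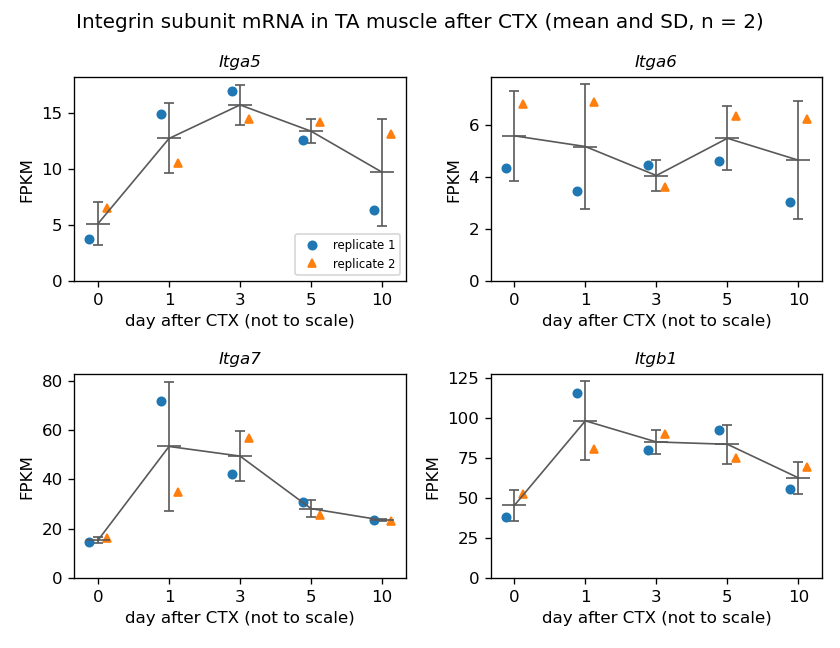
FPKM of the 4 integrin subunit genes (vertical axes) by day after CTX (horizontal axes, not to scale), with each library as a point and the mean and SD of 2 libraries as line and bar. Itga7 and Itgb1 were above both day 0 libraries on each later day, Itga5 on days 1, 3 and 5, and Itga6 varied between libraries of 1 day as much as between days.

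Markers of other cells differed from each other in their course over the days. The summed FPKM of 6 fibro-adipogenic markers (Pdgfra, Dcn, Lum, Col1a1, Dpt and Pi16) was 54.8 and 122 on day 0, 38.5 and 119 on day 1, 436 and 475 on day 3, 507 and 574 on day 5, then 125 and 279 on day 10. As for Lama4 and Lamb1, replicate 2 was the higher on days 0, 1 and 10. The endothelial, pericyte and smooth muscle, macrophage and red cell sums had this order on those days too. The sum of 6 endothelial markers (Pecam1, Cdh5, Kdr, Tek, Emcn and Tie1) was 65.5 and 86.0 on day 0 and 56.1 and 92.3 on day 1. It was 46.5 and 36.3 on day 3, 67.3 and 98.6 on day 5, then 47.8 and 95.8 on day 10. The sum of 5 pericyte and smooth muscle markers ran from 39.6 to 99.1 over all 10 libraries.

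Macrophage markers (6 genes) summed to 19.0 and 35.8 FPKM on day 0 and 546 and 517 on day 3, and neutrophil markers (4 genes) to at most 19.2 in any library. Schwann cell markers (5 genes) ran from 5.13 to 17.6 and red cell markers (3 genes) from 35.5 to 546. Mature fibre markers (7 genes) fell from sums of 55450 and 49650 on day 0 to 15550 and 12130 on day 3 and were at 64870 and 48720 on day 10. None of these marker genes was at 0 in every library of muscle. The part of each cell type in the levels of laminins and integrins was not tested.

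The genes with the most similar course over the 10 libraries of muscle, out of 12275 with a mean of at least 1 FPKM, differed from member to member. For Lama2 they were Impa2 and Fap, for Lama4 Nid1 and Col23a1, for Lamb1 Gxylt2 and Igfbp4, and for Lamc1 Cbx6 and Pik3r3. Nid1 encodes nidogen, the protein that ties laminin to collagen IV. For Lama5 they were Zc3h18 and Usp36 and for Lamb2 Gm9821 and Rbms2. For the integrins they were Cavin3 and Ptma (Itga5), Lrrc8c and Nxpe4 (Itga6), Cgref1 and Sertad1 (Itga7), and Txndc11 and Serpinb1a (Itgb1). Pearson r on the log2 scale lay between 0.928 and 0.989 for these 20 pairs.

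Other genes of the same pathways were called at shares that should be read against those of all genes. Of 14 further matrix receptors, 12 were tested and 5 were higher on day 3 and 0 lower, where 24.5% of all genes were higher and 24.3% lower. Among them were Sdc1, a heparan sulfate proteoglycan (by 2.17, SE 0.42), and Itga9, a tenascin receptor subunit (by 1.44, SE 0.38). On day 5, 3 were higher and 0 lower (12.9% and 12.5% of all genes), again with Sdc1 (1.74) and Itga9 (1.65) ahead. From day 3 to day 10, 4 of the 12 were lower and 0 higher (18.8% and 19.1% of all genes), with Itga4 (-1.75) and Sdc1 (-1.65) ahead.

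Of 10 genes of basement membrane and adhesive matrix, 2 were higher on day 3 and 4 on day 5, and 0 were lower, beside 24.5% of all genes higher on day 3 and 12.9% on day 5. The count on day 3 was no larger than the share of all genes. On day 3 these were Tnc, the matrix glycoprotein tenascin C (by 4.58, SE 0.82), and Fn1 (by 2.96, SE 0.64). On day 5 Fn1 was higher by 3.30 and Tnc by 2.70, together with the nidogens Nid1 (2.01) and Nid2 (2.23). From day 3 to day 10, Tnc alone fell, by 2.68 (SE 0.82). The median of the 10 was 0.40 on day 3 and 1.09 on day 5.

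The 12 linkers between integrins and actin split in direction on day 3, as did all genes (24.5% higher and 24.3% lower). On that day 5 were higher and 4 lower than on day 0, with Fblim1 (2.92) and Parva (1.58) the highest and Cib2 (-2.22) and Fermt2 (-1.06) the lowest. Parva encodes parvin alpha, which binds integrin-linked kinase, and Fermt2 encodes kindlin 2, an activator of integrins. On day 5, 4 were higher and 2 lower (12.9% and 12.5% of all genes), with Parva at 1.39 and Itgb1bp2 at 1.02, and Cib2 at -1.71 and Fermt2 at -0.64. Between days 3 and 10, 4 rose and 4 fell (19.1% and 18.8% of all genes). Cib2 (1.91) and Tln2 (0.82) then led the rises, and Fblim1 (-2.11) and Ilk (-0.98) the falls.

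In C2C12 cells the same genes were compared between stages and between the CTRL and Cas9M3 lines. The loss of Mettl3 cannot be told apart here from the construct and the making and selection of each line. The knockdown effect, or effect of the knockdown, below is the difference of Cas9M3 minus CTRL cells only. Defining markers of several other cell types of muscle were at or near 0. All 6 endothelial, all 5 Schwann and all 4 neutrophil markers were under 0.5 FPKM in each of the 8 libraries. The red cell marker sum was at most 1.18 FPKM. Of the 6 macrophage markers, 5 were under 0.5 FPKM in each library, with Adgre1, C1qa and C1qb at 0. The highest single macrophage marker value was 6.38 FPKM, and the sums ran from 0.749 to 6.54 FPKM. The sums of fibro-adipogenic markers (110 to 388 FPKM) and of pericyte markers (96.7 to 172 FPKM) were not low, so these lists do not set the line apart from such cells. The order of the chains differed from muscle. Itgb1 was at 143 to 317 FPKM. Itga5 rather than Itga7 was the most abundant of the alpha subunits described here in all 8 libraries, and Lama2 was the lowest laminin chain in 7 of the 8. The tables were scaled separately, so levels were not compared across them.

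In CTRL cells, 1 of the 10 genes, Itga7, was called higher on DM3 than in GM and 0 lower, where 0.767% of the 13824 genes tested were higher and 0.376% lower. In Cas9M3 cells 0 of the 10 were called between the same stages in limma (0 at an unadjusted p under 0.05), against 0.0145% of all genes higher and 0.0145% lower. Between the lines in GM 0 of the 10 were called (0 at an unadjusted p under 0.05), and of all genes 0% in either direction and 1244 at an unadjusted p under 0.05. On DM3 Itga7 alone was called, lower in Cas9M3, against 1.29% of all genes higher and 0.687% lower. A change of the knockdown effect between GM and DM3 was called for 0 of the 10 (1 at an unadjusted p under 0.05), and for 0% of all genes higher and 0% lower (1198 at an unadjusted p under 0.05). The median of the 10 fold changes was 0.20 in CTRL and -0.34 in Cas9M3 cells between stages, 0.16 between the lines in GM and -0.27 on DM3, beside medians of all genes between -0.05 and 0.00.

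Itga7 had the clearest pattern. It was at 11.8 and 9.84 FPKM in CTRL cells in GM and at 54.1 and 41.6 on DM3. In Cas9M3 cells it was at 9.04 and 10.8 in GM and at 11.9 and 12.9 on DM3. The 2 CTRL libraries on DM3 were above 40 FPKM and the other 6 below 13. The rise in CTRL cells was 2.13 (SE 0.21, adjusted p = 0.0206), or 4.60 and 4.23 times within replicates 1 and 2. In Cas9M3 cells the difference was 0.32 (SE 0.21, adjusted p = 0.646), with an interval of -0.18 to 0.82.

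On DM3 Itga7 was lower in Cas9M3 than in CTRL cells by a log2 difference of -1.93 (SE 0.21, adjusted p = 0.0215). In GM the difference was -0.12 (SE 0.21, adjusted p = 0.877), with an interval of -0.62 to 0.38. The difference between these 2 effects was -1.81 (SE 0.29), with an adjusted p of 0.266 in limma, so that it did not pass over all genes. Both calls of Itga7 ended without any 1 of the 4 libraries of DM3, with adjusted p of 0.213 to 0.266 between the lines and 0.0947 to 0.290 in CTRL cells. In a fit of the 2 compared groups alone the call in CTRL cells was lost too (adjusted p = 0.187).

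Markers of differentiation were highest in the CTRL libraries on DM3, as was Itga7. Myog, a myogenic factor of differentiation, was at 11.1 and 2.70 FPKM in CTRL cells in GM and at 89.1 and 83.3 on DM3. In Cas9M3 cells Myog was at 12.7 and 0.182 in GM and 3.50 and 2.28 on DM3. The summed myoblast and new fibre markers were 376 and 337 FPKM in CTRL cells on DM3 against 23.7 and 20.9 in Cas9M3 cells. The mature fibre sum was 457 and 410 against 12.9 and 9.89, with Acta1, the skeletal muscle actin gene, at 414 and 362 against 10.3 and 7.89. In GM these sums were higher in replicate 1 than in replicate 2 of both lines. The mature fibre sum was then 117 and 13.0 FPKM in CTRL cells and 76.1 and 4.65 in Cas9M3 cells. Itga7 in the same libraries was at 11.8 and 9.84 FPKM in CTRL cells and 9.04 and 10.8 in Cas9M3 cells. The part of these marker differences in the level of Itga7 was not tested.

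**Figure D5:**
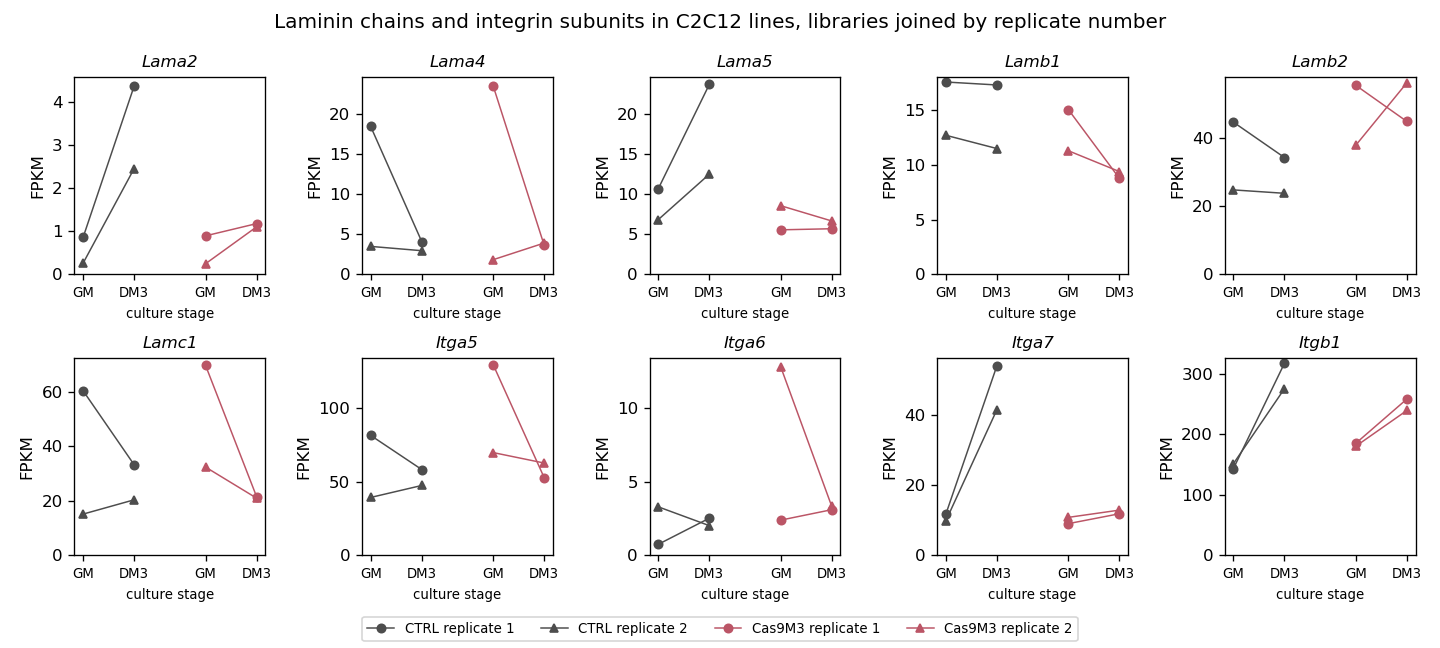
FPKM of the 10 genes (vertical axes) in CTRL and Cas9M3 cells in GM and on DM3 (horizontal axes), with libraries of the same replicate number joined by a line. Itga7 was at 54.1 and 41.6 FPKM in the CTRL libraries on DM3 and below 13 FPKM in the other 6, while Lama4 and Itga6 differed mostly between replicates in GM.

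Itgb1 was at 143 and 151 FPKM in CTRL cells in GM and 317 and 275 on DM3, and at 185 and 180 in GM and 258 and 239 on DM3 in Cas9M3 cells. None of the 4 groups overlapped with another. The difference between stages was 1.00 in CTRL cells (SE 0.20) with an adjusted p of 0.0818, and 0.44 in Cas9M3 cells (SE 0.20) with an adjusted p of 0.434. Between the lines on DM3 it was -0.25 (SE 0.20, adjusted p = 0.620). The effect of the knockdown on DM3 minus that in GM was -0.56 (SE 0.28, adjusted p = 0.625). Without replicate 1 of CTRL cells in GM, 3 genes rather than 1 were called in CTRL cells, namely Itga7, Itgb1 (adjusted p = 0.0290) and Lama2 (adjusted p = 0.0301).

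Lama2, low in myoblasts, was at 0.860 and 0.262 FPKM in CTRL cells in GM and at 4.36 and 2.45 on DM3, 5.07 and 9.37 times as high within replicates 1 and 2. In Cas9M3 cells it was at 0.895 and 0.249 in GM and at 1.18 and 1.10 on DM3. The difference in CTRL cells was 2.52 (SE 0.67) and was not called (adjusted p = 0.145). With the replicate number as a block it was called (adjusted p = 0.0447), which made 2 of the 10 genes in that comparison. Between the lines on DM3 the difference was -1.45 (SE 0.67, adjusted p = 0.346) and was not called.

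Lama5, like Lama2, was highest in CTRL cells on DM3. In CTRL cells it was at 10.7 and 6.85 FPKM in GM and 23.7 and 12.5 on DM3, and in Cas9M3 cells at 5.57 and 8.58 in GM and 5.71 and 6.68 on DM3. The CTRL libraries on DM3 were above the other 6. The difference in CTRL cells was 1.00 (SE 0.39, adjusted p = 0.256) and that between the lines on DM3 was -1.47 (SE 0.39, adjusted p = 0.121). In a limma fit of these 2 groups alone, Lama2 (adjusted p = 0.0291) and Lama5 (adjusted p = 0.0329) were called on DM3 beside Itga7. The share of all genes called in that fit was not recorded. The difference of the knockdown effects was -1.16 (SE 0.55, adjusted p = 0.612).

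The beta chains leaned apart between the lines without a call. Lamb1 was at 17.6 and 12.7 FPKM in CTRL cells in GM, 17.3 and 11.5 on DM3, and in Cas9M3 cells 15.0 and 11.3 in GM and 8.78 and 9.39 on DM3. Lamb2 was at 44.8 and 24.9 in CTRL cells in GM and 34.4 and 23.9 on DM3, and in Cas9M3 cells at 55.6 and 38.0 in GM and 45.0 and 56.4 on DM3. On DM3 Cas9M3 cells lay below CTRL cells for Lamb1, by -0.63 (SE 0.28, adjusted p = 0.323), and above them for Lamb2, by 0.81 (SE 0.36, adjusted p = 0.323). The share of Lamb1 in the summed beta chains was 33.5% and 32.5% in CTRL cells on DM3 and 16.3% and 14.3% in Cas9M3 cells, against 28.2% and 33.8% and 21.3% and 22.9% in GM. Neither share was tested.

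For the remaining genes the replicates in GM were far apart. Lama4 was at 18.4 and 3.49 FPKM in CTRL cells and 23.5 and 1.84 in Cas9M3 cells in GM, and between 2.96 and 4.10 in all 4 libraries on DM3. Lamc1 was at 60.4 and 15.1 in CTRL cells and 69.7 and 32.4 in Cas9M3 cells in GM, and between 20.4 and 33.2 on DM3. Itga6 was at 0.743 and 3.28 in CTRL cells and 2.38 and 12.8 in Cas9M3 cells in GM, and between 2.01 and 3.31 on DM3. Replicate 1 was thus the higher for Lama4 and Lamc1 and the lower for Itga6, in both lines.

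Within replicate numbers, Lamb2, Lamc1, Itga5, Itga6 and Itgb1 were higher in Cas9M3 cells in both pairs of GM libraries, and Lamb1 was lower in both. The share of all genes that moved the same way in both pairs was not counted. Itga6 was 3.21 and 3.89 times as high, and the fitted difference was 1.74 (SE 0.90, adjusted p = 0.628). Itga5, at 81.6 and 39.3 FPKM in CTRL cells and 130 and 69.9 in Cas9M3 cells in GM, was 1.59 and 1.78 times as high, with a fitted difference of 0.75 (SE 0.43, adjusted p = 0.666). The replicate number as a block gave an adjusted p of 0.365 for Itga6 and 0.391 for Itga5, and neither was called. On DM3 Itga5 was at 58.4 and 47.5 in CTRL cells and 52.8 and 62.7 in Cas9M3 cells, where the lines overlapped.

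The share of Itga7 in the summed alpha subunits was 12.5% and 18.8% in CTRL cells in GM and 47.1% and 45.7% on DM3, and that of Itga5 was 86.7% and 75.0% in GM and 50.7% and 52.1% on DM3. In Cas9M3 cells on DM3 Itga7 held 17.5% and 16.3% and Itga5 77.9% and 79.5%. These shares set each library against itself and were not tested. They cover Itga5, Itga6 and Itga7 only. Itga3, another alpha subunit, was at 26.6 to 51.6 FPKM in C2C12 and is not in these sums.

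Among the other pathway genes in C2C12, Tnc was called higher on DM3 in CTRL cells (by 2.49, SE 0.33, adjusted p = 0.0354), as the only 1 of 9 matrix genes tested. It was at 3.21 and 3.53 FPKM in GM and at 26.1 and 14.3 on DM3. In that comparison 0.767% of all genes were called higher and 0.376% lower. Of 11 receptors tested, 2 were called between the lines on DM3, both higher in Cas9M3 cells. Of all genes, 1.29% were called higher and 0.687% lower there. Itgb4, the partner of Itga6 in the laminin receptor of hemidesmosomes, was at 0.265 and 0.214 FPKM in CTRL and 2.25 and 2.36 in Cas9M3 cells, a difference of 2.83 (SE 0.30, adjusted p = 0.0215). Itgb5, which pairs with Itgav in a vitronectin receptor, was at 96.2 and 90.8 FPKM in CTRL and 202 and 214 in Cas9M3 cells, a difference of 1.15 (SE 0.17, adjusted p = 0.0339). In GM too Itgb4 was at 2.48 and 3.76 FPKM in Cas9M3 against 0.664 and 0.753 in CTRL cells, and Itgb5 at 118 and 121 against 68.2 and 65.8. No linker was called in any comparison of C2C12.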

How the data were processed

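RNA was sequenced from TA muscle (10 libraries) and C2C12 cells (8 libraries), 18 in all, with 2 per group; 8 further libraries of the series were not analysed here. The authors used HISAT2 (genome GRCm38) and featureCounts (Ensembl genes), and the FPKM values they deposited come from the fpkm function of DESeq2, in 2 tables scaled separately; whether strand was used is not given in the sources used here. All per-sample columns were used.

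From these FPKM values, log2(FPKM + 0.1) was fitted over all groups of a table with lmFit and trended eBayes of limma 3.58.1 in R 4.3.3, for genes of at least 0.5 FPKM in 2 libraries (16753 in muscle, 13824 in C2C12), and p-values were adjusted by the Benjamini-Hochberg method over all of them. Folds of low genes are understated on this scale. The study's own test used counts, not FPKM. Low values came in steps of whole reads (at least 96.4% in muscle and 98.6% in C2C12 within 0.02 of a read), which gave the depths; 1 read on 1 kb was worth 0.0494 to 0.0817 FPKM in muscle and 0.0315 to 0.104 in C2C12. The fit was tested on simulated data. Of 200 genes given a log2 change of 2, calls were made for 177 in muscle (day 3 against day 0) and 123 in C2C12 (Cas9M3 cells, DM3 against GM). In these runs 13 and 8 unchanged genes were called. The simulated noise was independent between libraries, with the same spread of a gene in all groups, and low genes were given no change. The real C2C12 libraries deviate together and groups differ in spread, so these counts do not give the recovery in the real data.

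The members and the gene lists were chosen with earlier results of these data known. The result of 1 gene list is not reported here. All 10 members are named, and from each other list the 2 largest called rises and falls of a comparison. Levels of Fn1, Itga3, Itgb4 and Itgb5 outside a call were added after their values were seen. Coordinates are of GRCm38 (GENCODE M21, which held 53360 of 53465 and 55227 of 55487 identifiers). In C2C12, same-numbered libraries deviated together (6 correlations of 0.278 to 0.680), so the numbers were taken as pairs by this measure alone, and the replicate number was a block in an alternative fit. Other alternatives were other pseudocounts, filters and scalings, only the groups compared, the study's fold threshold, a term for Xist, and leaving out each library. Tables and plots were made with Python 3.11.15, pandas 2.3.3, numpy 2.4.6 and matplotlib 3.10.9.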

Additional observations from a re-analysis of the deposited data

How the results depend on the processing

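Counts of called members moved with several choices, under which the share of all genes called was not recorded. With a term for libraries that express Xist they were 0 on day 1, 2 on day 3, 0 on day 5 (all against day 0), 0 from day 1 to 3 and 0 from day 3 to 10. With a log2 change of at least 2 also asked for, they were 0 in these 5 comparisons and 0 between the lines on DM3. Without a filter on low values they were 0 on day 1, 1 on day 5, 1 from day 1 to 3 and 0 from day 3 to 10. With only the groups compared in the fit they were 0 on day 1, 4 from day 3 to 5, 0 in CTRL cells and 3 between the lines on DM3. Quantile normalization gave 2 from day 3 to 10, and a pseudocount of 1 or a filter of 1 FPKM gave 1 from day 3 to 5. With the replicate number as a block they were 1 on day 1, 1 from day 3 to 5, 2 from day 3 to 10 and 2 in CTRL cells. In muscle the numbers did not pair the libraries (correlations of -0.0187 to 0.211); in C2C12 the block changed no call other than that of Lama2 in CTRL cells among the fold changes of members tried.

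Leaving out 1 library at a time gave 0 to 3 calls on day 1, 1 to 6 on day 3, 0 to 6 on day 5, 0 to 3 from day 1 to 3, 0 to 1 from day 3 to 5, 0 to 2 from day 3 to 10, 0 to 3 in CTRL cells and 0 to 1 between the lines on DM3. The difference of Itga7 between the lines in GM then ran from -0.25 to 0.0092, the only one of the 44 fold changes of members tried in this way to turn its sign. Of 404 values without 1 library, 316 kept their direction and their side of the threshold, 65 lost a call, 21 gained one and 2 turned. The fold changes of other pathway genes were not run under these alternatives. Of 375 values of the 44 under the other alternatives, 333 kept their direction and their side of the threshold, 27 lost a call, 15 gained one and 0 turned. The cause of these shifts was not tested. What read depth adds to the spread between libraries was not tested.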
